A study of Homo sapiens with 4 samples.

Results

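The FOS and JUN genes encode the subunits of AP-1, a dimeric transcription factor, and 7 genes make up the family examined here, of 43311 genes on the array. They are FOS, FOSB, FOSL1 and FOSL2 of the FOS group and JUN, JUNB and JUND of the JUN group. The rule takes genes by name, as all gene probes of the array design that carry 1 of these 7 symbols. Each gene had 1 probe of 60 bases, printed as 1 spot on each of the 4 arrays.

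AP-1 proteins hold a basic region that touches DNA and a leucine zipper through which they pair. FOS proteins do not pair with each other and bind DNA as dimers with a JUN protein, whereas JUN proteins also pair among themselves. FOS, FOSB, JUN and JUNB are classic immediate early genes, transcribed within minutes of growth factor, cytokine or stress signals. FOSL1 and FOSL2 usually follow later, and JUND is transcribed more steadily. In myeloid cells, AP-1 subunits take part in differentiation towards monocytes and macrophages and in the response to cytokines.

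RNA came from 2 human cell lines cultured with or without 5-azacytidine (AZA), a cytidine analogue that is built into nucleic acids and traps DNA methyltransferases. MDS-L is an established line derived from a patient with a myelodysplastic syndrome, and MDS-L/CDA is its AZA-resistant derivative, into which the authors transduced CDA, a gene for an enzyme that deaminates cytidine and its analogues. The 4 conditions were MDS-L with vehicle (0.1% DMSO), MDS-L with 1 μM AZA, MDS-L/CDA with vehicle and MDS-L/CDA with 1 μM AZA, each for 72 h. The medium was RPMI1640 and held IL-3 (20 ng/mL), FBS (10%) and 2-mercaptoethanol (50 μM), as the labels give it, and the study's methods state another concentration of IL-3. There was 1 array per condition, so no difference below has a replicate check, no test was made, and no value is a mean of separate cultures. One characteristics field names the opposite treatment for the MDS-L AZA and the MDS-L/CDA vehicle arrays, whereas the title, description and source name agree on the treatments used here. The titles and the series design also write the dose as mM, where the other fields and the study's methods give μM.

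Signals below are the scanner's processed signal, which is background-subtracted brightness, divided by the 75th percentile of its array. That percentile was 52.5, 52.9, 40.8 and 37.3 for MDS-L vehicle, MDS-L AZA, MDS-L/CDA vehicle and MDS-L/CDA AZA. Between 32.6% and 36.5% of 58185 gene probes carried the flag for a signal well above background, the lowest signal so flagged was 9.98 to 11.1 on the 4 arrays, and no spot was saturated. The probe of CDA was below that level on all 4 arrays, with processed signals of 4.48 and 5.42 for MDS-L/CDA in vehicle and with AZA and of 5.53 and 4.99 for MDS-L. The transduced gene was thus not seen in the line labelled MDS-L/CDA. It is not known here if the probe lies within the transduced sequence, so the line labels could not be checked. DNMT1, the maintenance methyltransferase, showed AZA/vehicle ratios of 0.80 (MDS-L) and 1.11 (MDS-L/CDA). Of the 7 markers listed for myeloid blasts, 6 were well above background on all arrays, CD34 and CD33 among them, and MPO on none.

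All family members except JUN were well above background on every array. The sequences are shown first because each value rests on a single probe. The first 30 of the 60 bases of each probe, as the array design gives them, are as follows, in lower case with nothing marked.
FOS: agagggttcctgtagacctagggaggacct
FOSB: tttttacaatctgtatctttgacaattctg
FOSL1: ctggcctctctagcacaatttgcactaaat
FOSL2: tgggactggaagtgacctgtacaagtgatg
JUN: cttccaatttggaatcttctctttgacaat
JUNB: gctttgtcaaagccctggacgatctgcaca
JUND: aagctggagcgcatctcgcgcctggaagag
On hg19 the FOS probe lies on chromosome 14 from 75748214 to 75748273, the FOSB probe on chromosome 19 from 45978205 to 45978264, and the FOSL1 probe on chromosome 11 from 65660098 to 65660157. The FOSL2 probe lies on chromosome 2 from 28637175 to 28637234 and the JUN probe on chromosome 1 from 59246511 to 59246570. The JUNB and JUND probes both lie on chromosome 19, from 12902998 to 12903057 and from 18391371 to 18391430. FOS, FOSB, FOSL2 and JUNB were read on the plus strand and FOSL1, JUN and JUND on the minus strand. Whether a probe lies in coding sequence or in a UTR was not analysed here. No stretch longer than 7 bases was shared between member probes except 13 bases common to the FOSB and JUN probes. Matches of a probe to transcripts of other genes were not examined.

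The promoters differed in their number of CpG dinucleotides, the sites at which DNA is methylated. Within the 250 bases before the RefSeq start site on GRCh38.p14, JUND held 40 CpG, JUNB 27, FOS 25, FOSL2 24, FOSB 19 and JUN 14, against a median of 11 over 35116 promoters. JUND was thus among the 2.16% of promoters with as many. Methylation was not measured on these arrays. The promoters of FOS, FOSB, JUN and JUNB are printed because these are the immediate early genes and FOS and FOSB had the largest ratios that could be measured. Capitals mark the motifs that were found. They are the TATA box as TATAAA, the core of the cAMP response element as TGACG, the JUN-type relative of the AP-1 site as TGACATCA, the GC box as GGGCGG and the CAAT box as CCAAT. Both strands were searched, so that a motif on the other strand appears as its reverse complement.
FOS, chr14:75278578-75278827, plus strand: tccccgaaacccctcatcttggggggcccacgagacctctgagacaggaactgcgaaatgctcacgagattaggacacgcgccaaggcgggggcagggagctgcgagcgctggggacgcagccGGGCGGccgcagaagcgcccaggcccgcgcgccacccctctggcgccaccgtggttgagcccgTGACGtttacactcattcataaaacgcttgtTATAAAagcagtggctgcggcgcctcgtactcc
FOSB, chr19:45467746-45467995, plus strand: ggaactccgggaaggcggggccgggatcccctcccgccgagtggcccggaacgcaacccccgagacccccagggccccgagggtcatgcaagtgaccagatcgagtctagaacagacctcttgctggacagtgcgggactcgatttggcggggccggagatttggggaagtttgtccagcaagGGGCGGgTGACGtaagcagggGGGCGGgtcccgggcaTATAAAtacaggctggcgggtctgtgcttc
JUN, chr1:58784048-58784297, minus strand: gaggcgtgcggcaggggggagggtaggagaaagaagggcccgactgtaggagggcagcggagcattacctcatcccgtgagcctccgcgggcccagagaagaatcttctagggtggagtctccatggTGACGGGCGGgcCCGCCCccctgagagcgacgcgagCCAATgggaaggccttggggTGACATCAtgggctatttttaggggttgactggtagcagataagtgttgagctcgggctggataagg
JUNB, chr19:12791236-12791485, plus strand: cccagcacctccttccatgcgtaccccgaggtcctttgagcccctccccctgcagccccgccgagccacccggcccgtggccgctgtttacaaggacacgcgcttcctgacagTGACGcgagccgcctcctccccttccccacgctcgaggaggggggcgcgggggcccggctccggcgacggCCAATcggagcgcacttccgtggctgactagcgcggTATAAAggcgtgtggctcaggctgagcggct
TATAAA lay 33 to 28 bases before the start in FOS, 30 to 25 in FOSB and 31 to 26 in JUNB, and was found in none of the other 3 windows. It occurs in 10.72% of the 35116 promoters. TGACG was found in all 6 windows, against 21.2% of promoters, and stood 64 to 60 bases before the start in FOS and 60 to 56 in FOSB. JUN held TGACATCA 67 to 60 bases before the start (2.37% of promoters), and JUND held the full element TGACGTCA, of which TGACG is a part, 200 to 193 bases before the start (1.65%). GGGCGG was present in FOS, FOSB, FOSL2, JUN and JUND (42.6% of promoters) and CCAAT in JUN, JUNB and JUND (32% of promoters). The classical AP-1 site TGACTCA (4.2% of promoters) and the CArG box (1.16%) were not found in the 250 bases of any of the 6 members. A match is only a match of letters, and its absence concerns these windows alone.

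FOS, the founding member of its group, had its lowest signal on the MDS-L vehicle array and its highest on the MDS-L AZA array. Its scaled signal was 0.236 in vehicle and 1.47 with AZA for MDS-L, and 0.358 in vehicle and 0.953 with AZA for MDS-L/CDA. Both AZA arrays thus lay above both vehicle arrays. The AZA/vehicle ratio was 6.21 in MDS-L cells, a log2 ratio of 2.63 with a standard error of 0.35 from the scanner software's error model of the spots. In MDS-L/CDA cells the ratio was 2.66 (log2 1.41, standard error 0.33). Both ratios rest on dim vehicle signals, 12.4 in MDS-L and 14.6 in MDS-L/CDA before scaling. The lowest signals well above background on these arrays were 9.98 and 11.1. Of the genes well above background on both arrays of a line, 0.503% had a ratio as high in MDS-L and 0.552% in the MDS-L/CDA line.

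FOSB, a close relative of FOS, followed the same order over the arrays with smaller differences. Its scaled signal was 0.432 in vehicle and 1.25 with AZA for MDS-L, and 0.540 in vehicle and 0.936 with AZA for MDS-L/CDA. The ratio was 2.90 in MDS-L (log2 1.54, standard error 0.27) and 1.73 in the MDS-L/CDA line (log2 0.79, standard error 0.29). Ratios as high were seen in 1.92% and 3.75% of genes. For scale, the spread between spots of the same probe within an array implies an SD of 0.23 to 0.40 for a log2 ratio of single spots. It is a median over 26 to 41 repeatedly printed probes per array. No ratios between arrays entered it, and it covers neither hybridization nor culture.

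FOSL1 and FOSL2, which lack the strong transactivation domain of FOS and FOSB, did not share this pattern. The scaled signal of FOSL1 was 1.05 in vehicle and 0.733 with AZA for MDS-L, and 0.958 in vehicle and 1.5 with AZA for MDS-L/CDA. With AZA it was therefore lower in MDS-L cells (ratio 0.698, log2 -0.52, standard error 0.24) and higher in MDS-L/CDA cells (ratio 1.57, log2 0.65, standard error 0.24), and it was the only member with opposite directions in the lines whose directions held under all 8 ways of scaling tried. The scaled signal of FOSL2 was 0.638 in vehicle and 0.615 with AZA for MDS-L, and 0.436 in vehicle and 0.302 with AZA for MDS-L/CDA. Its ratio was 0.964 in MDS-L cells (log2 -0.05, standard error 0.25), with a sign that turned under 3 of the other ways of scaling, and 0.693 in MDS-L/CDA cells (log2 -0.53, standard error 0.40). Both MDS-L/CDA arrays lay below both MDS-L arrays for FOSL2.

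JUN, the founding member of the JUN group, was measured on 1 array only. Its processed signal was 15.7 in MDS-L AZA, against 2.16 in MDS-L vehicle, 2.38 and 2.23 for MDS-L/CDA in vehicle and with AZA, all 3 not well above background. JUN was at least 1.56-fold higher with AZA in MDS-L cells, as a bound against the lowest signal well above background on the vehicle array. No fold can be given in MDS-L/CDA cells, where both arrays were below background, nor between the lines under AZA, where the floor of the MDS-L/CDA array, once scaled, is about as high as the JUN level of MDS-L AZA. The JUN probe shares 13 bases with that of FOSB, whose processed signal was 66.3 on the same array. On the MDS-L/CDA AZA array FOSB reached 34.9, where the JUN signal was 2.23, and the part of the shared bases in the JUN signal was not tested.

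JUNB and JUND had the most similar patterns of any pair of members. The scaled signal of JUNB was 1.67 in vehicle and 2.40 with AZA for MDS-L, and 1.95 in vehicle and 3.14 with AZA for MDS-L/CDA. That of JUND was 3.33 in vehicle and 4.90 with AZA for MDS-L, and 3.53 in vehicle and 5.87 with AZA for MDS-L/CDA. Both genes were lowest in MDS-L vehicle and highest in MDS-L/CDA AZA, with both AZA arrays above both vehicle arrays. The JUNB ratio was 1.44 in MDS-L (log2 0.52, standard error 0.21) and 1.61 in the MDS-L/CDA line (log2 0.69, standard error 0.21). The JUND ratio was 1.47 in MDS-L (log2 0.56, standard error 0.21) and 1.66 in the MDS-L/CDA line (log2 0.73, standard error 0.21). With each array scaled to its median, the MDS-L log2 ratio was -0.02 for JUNB and 0.02 for JUND, so that neither direction in MDS-L cells stands apart from the choice of scaling.

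**Figure D1:**
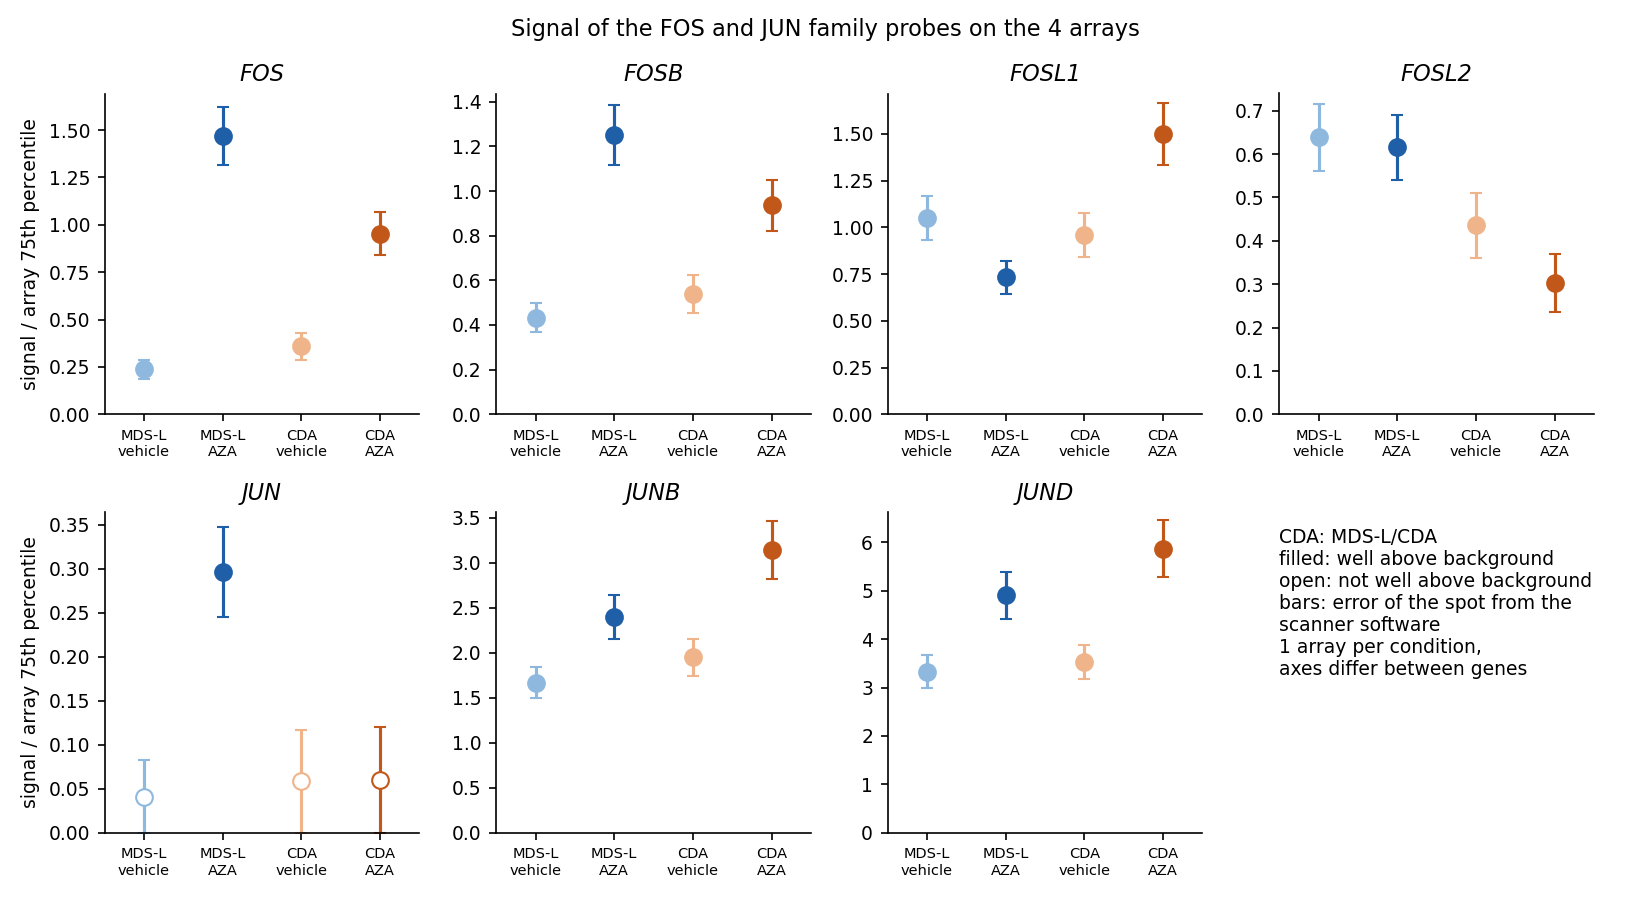
Processed signal of the 7 probes divided by the 75th percentile of the array (vertical axis, no unit, starting at 0 and different for each gene) on the 4 arrays, 1 per condition. Bars are the error of the spot given by the scanner software, and open circles are not well above background. FOS runs from 0.236 in MDS-L vehicle to 1.47 in MDS-L AZA, and JUN is well above background only in MDS-L AZA.

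Across the family, the question was how AZA changed expression in each line. A gene was counted as higher or lower at a ratio of at least 2 with the brighter array well above background, over genes that passed background in either condition. In MDS-L cells 2 of 7 members, FOS and FOSB, were at least 2-fold higher, where 6.73% of 17172 genes were, and 0 were lower, where 6.03% of genes were. In MDS-L/CDA cells 1 of 6 measured members, FOS, was at least 2-fold higher (2.53% of 15393 genes) and 0 were lower (3.07%). FOS, FOSB, JUNB and JUND, 4 of the 6 members measured on all arrays, had both AZA arrays above both vehicle arrays, as did 15.3% of 13962 genes, while 0 members had both below, as did 23.4%. The rule in the study's methods asks for a Z score of at least 2 besides the ratio. The methods give no formula for it, so a Z score was defined here, and it may differ from that of the study. With it FOS in MDS-L cells passed (Z score 2.23), whereas FOSB in MDS-L cells (1.66) and FOS in MDS-L/CDA cells (1.67) did not. Both 2-fold calls of FOS and that of FOSB were also lost with normexp background correction, where the log2 ratio of FOS was 0.95 in MDS-L and 0.43 in the MDS-L/CDA line. With median scaling FOSB was just under 2-fold in MDS-L cells (log2 0.99). Normexp as used here adds an offset of 50 to each spot, which exceeds the FOS signals of 12.4 and 14.6 in vehicle.

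Over the 6 members measured on both arrays, the median log2 ratio was 0.54 in MDS-L and 0.71 in the MDS-L/CDA line. The medians of all genes were -0.16 and 0.012. The members' median stood 0.50 to 0.70 above that of all genes in MDS-L cells and 0.37 to 0.70 above it in MDS-L/CDA cells over the 8 ways of scaling. Median scaling moved the median of all genes in MDS-L cells to -0.70, and the same shift applied to the members. The distance between the medians was bound to be the same in the 5 settings that only shift each array by a constant, and it was smallest with normexp.

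**Figure D2:**
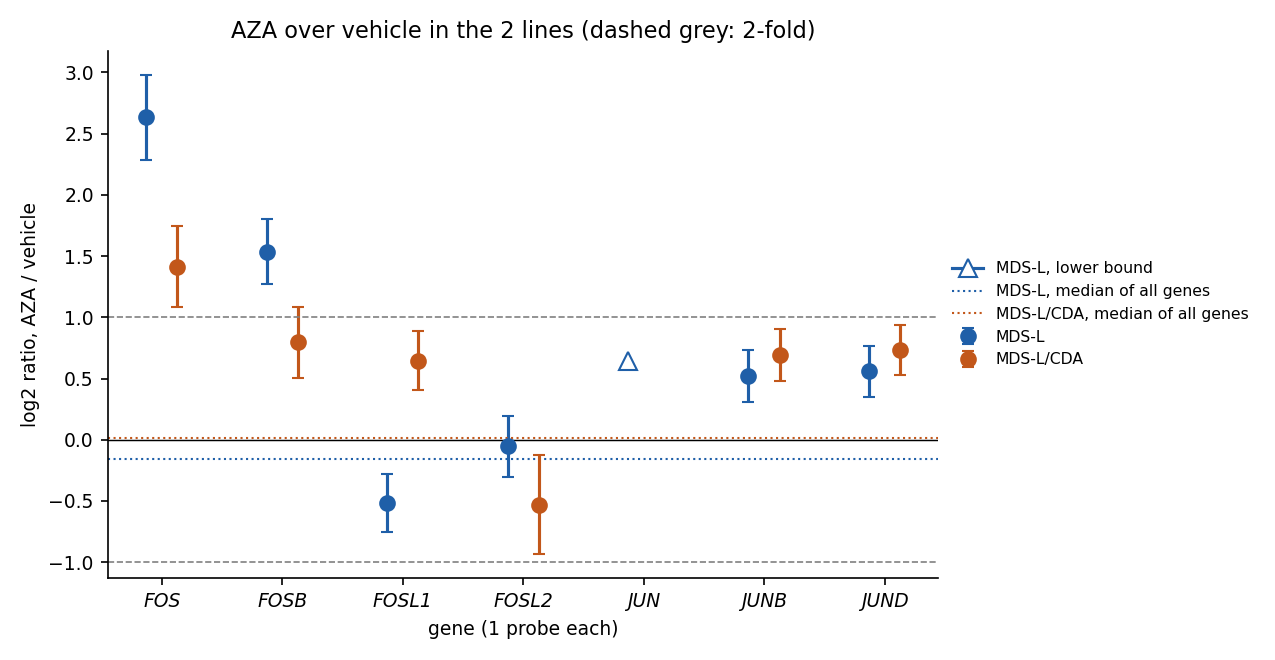
Log2 ratio of AZA over vehicle for each member (vertical axis) in MDS-L (blue) and MDS-L/CDA cells (orange), from 1 array per condition. Bars are standard errors from the scanner software's error model, the triangle for JUN is a lower bound, dotted lines are the medians of all genes and dashed lines mark 2-fold. FOS stands highest in both lines, at 2.63 and 1.41, and FOSL1 lies on opposite sides of 0.

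**Figure D3:**
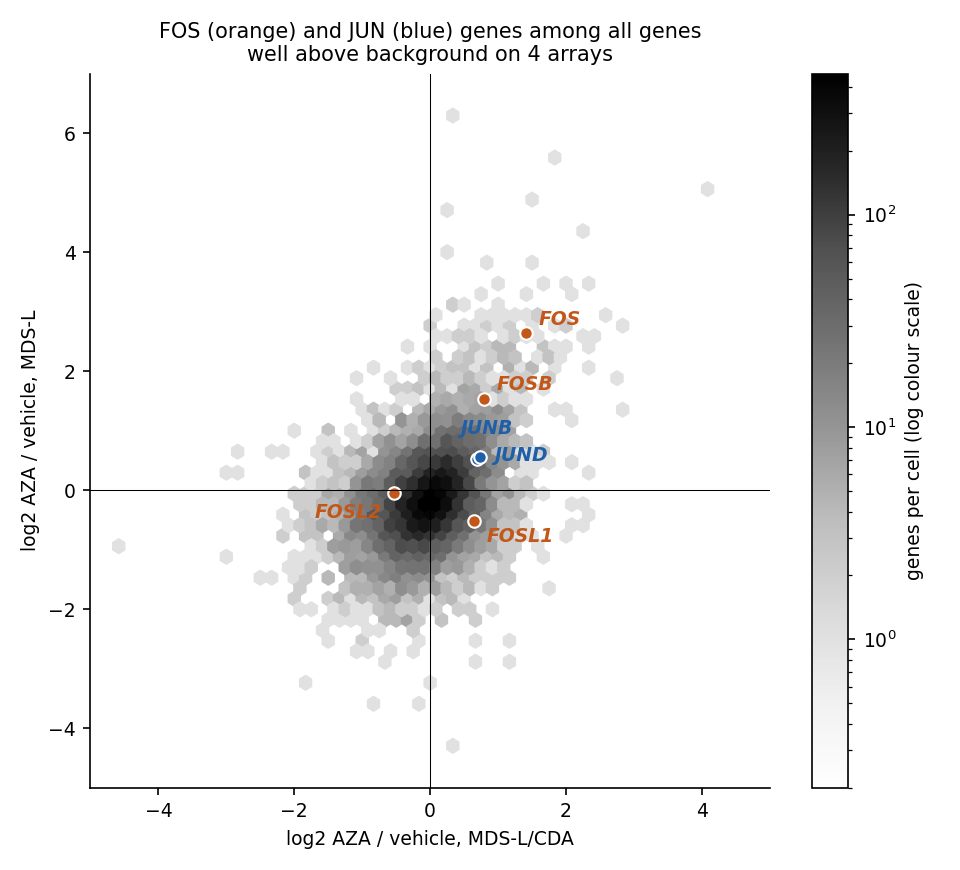
Log2 ratio of AZA over vehicle in MDS-L cells (vertical axis) against MDS-L/CDA cells (horizontal axis) for 13962 genes well above background on all 4 arrays, shaded by the number of genes. FOS and FOSB lie at the upper right, JUNB and JUND nearly coincide, and FOSL1 lies at the lower right.

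**Figure D4:**
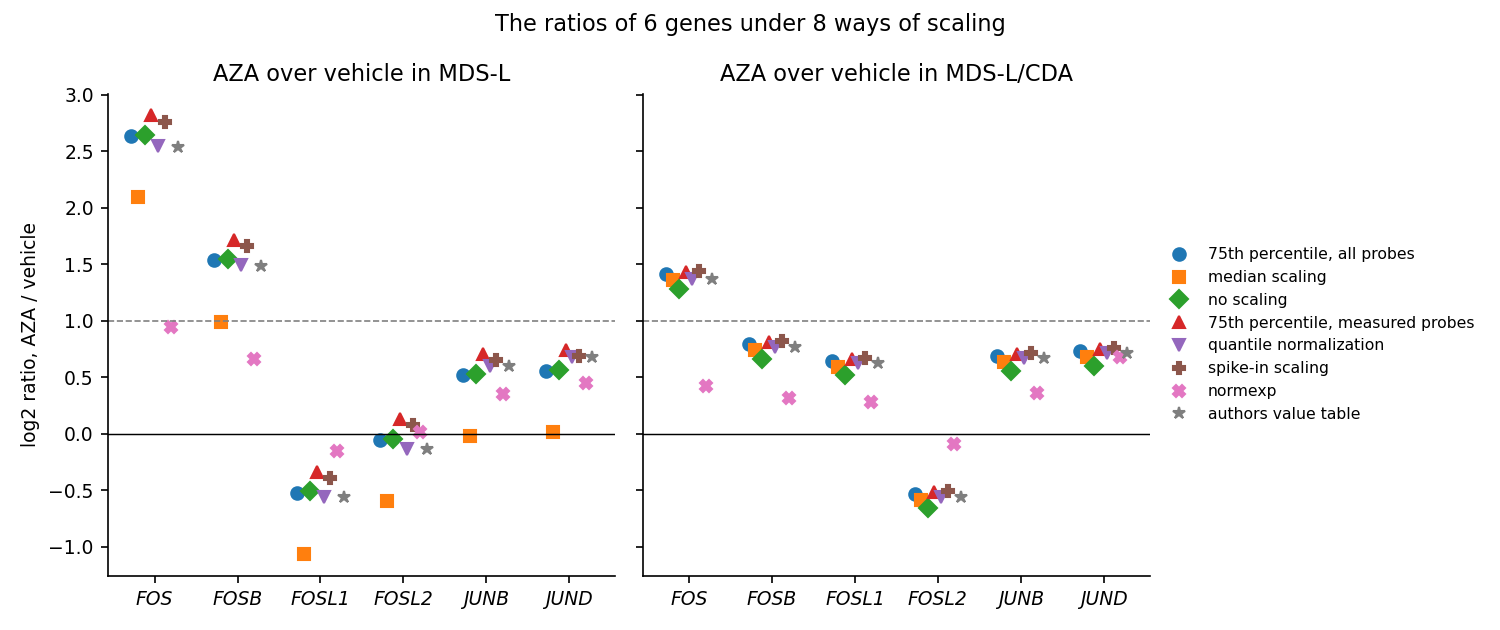
Log2 ratio of AZA over vehicle (vertical axis) of the 6 members measured on all arrays under 8 ways of scaling, in MDS-L (left) and MDS-L/CDA cells (right). FOS, FOSB, FOSL1 and JUND keep their side of 0 in both panels, JUND with a lowest value of only 0.02 in MDS-L cells. Normexp gives the smallest FOS values, 0.95 and 0.43.

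The lines also differed in how far each member moved with AZA, which was not tested. The log2 ratio in MDS-L minus that in MDS-L/CDA cells was 1.22 for FOS, 0.74 for FOSB, 0.48 for FOSL2, -0.17 for JUNB, -0.17 for JUND and -1.17 for FOSL1. Over 13962 genes this difference had a median of -0.15 and an SD of 0.62. A difference as high as that of FOS was seen in 2.46% of genes, and one as low as that of FOSL1 in 4.13%. The values of JUNB and JUND lay at the middle of all genes.

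Comparing the lines directly, in vehicle 0 of 6 members differed at least 2-fold, where 1.97% of 16015 genes were higher in MDS-L/CDA cells and 2.64% lower. The log2 ratios of MDS-L/CDA over MDS-L in vehicle were 0.60 for FOS, 0.32 for FOSB, 0.22 for JUNB, 0.08 for JUND, -0.13 for FOSL1 and -0.55 for FOSL2. Those of FOSB, JUNB and JUND changed sign with median scaling or no scaling. The median of the 6 members was 0.15, and that of all genes 0.093. Under AZA, FOSL1 was higher in MDS-L/CDA cells (2.05-fold, log2 1.03) and FOSL2 lower (ratio 0.491, log2 -1.03), which makes 1 of 7 members in each direction beside 5.43% and 5.23% of 16739 genes. Both ratios sit at the limit, and several settings moved them to the other side. That of FOSL2 also rests on a signal close to background on the MDS-L/CDA AZA array. FOS and FOSB were lower in MDS-L/CDA than in MDS-L cells under AZA (log2 -0.62 and -0.42). JUNB and JUND were higher (log2 0.39 and 0.26), with signs that turned without scaling. The median of the members was -0.08, and that of all genes 0.23. These comparisons share arrays with those of AZA and vehicle, so they are not further evidence.

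FOS and FOSB were ordered MDS-L vehicle, MDS-L/CDA vehicle, MDS-L/CDA AZA and MDS-L AZA from low to high, and JUNB and JUND had the last pair the other way round. For FOSB the neighbouring arrays in vehicle differed by 0.32 and those with AZA by 0.42 on the log2 scale, about the size of the spread between spots. For JUND the neighbours in vehicle differed by 0.08. Over the 4 arrays FOS spanned a range of 2.63 on the log2 scale, as wide as or wider than in all but 0.802% of genes, and the ranges of JUNB (0.91) and JUND (0.82) were reached by 27.8% and 35.0% of genes. The distance between 2 patterns was the root of the summed squared differences of log2 signals, each centred on its mean over the 4 arrays. JUNB and JUND lay 0.14 apart, and the next closest pair, FOSB and JUND, 0.73.

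Of 13961 other genes well above background on all arrays, the pattern nearest to FOS was that of IL1RN, the interleukin-1 receptor antagonist, at a distance of 0.086. KLF2, a zinc finger transcription factor, and GZMM, a granzyme, followed at 0.27 and 0.29. IL1RN had scaled signals of 2.19, 12.8, 3.36 and 8.45 in MDS-L vehicle, MDS-L AZA, MDS-L/CDA vehicle and MDS-L/CDA AZA, in the order in which FOS ran. Nearest to FOSB were CDKN2D, a cyclin-dependent kinase inhibitor, FHL2, a LIM domain protein that binds JUN and FOS proteins, and LMO7, at 0.051, 0.063 and 0.12. FOSL1 had SLC35G1 and TTC4 at 0.058 each, and FOSL2 had TAF3, SAYSD1 and ANP32D at 0.14 each. RRBP1, NBEAL2 and WASF1 were nearest to JUNB, at 0.064, 0.065 and 0.071, and MIB2 was the nearest gene with a standard symbol to JUND, at 0.061. These distances rest on 4 arrays.

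The partners of AP-1 proteins and their relatives showed a single gene past 2-fold. In MDS-L cells 1 of 11 measured members of a list of 13 was at least 2-fold higher and 0 lower (median log2 0.23), and in MDS-L/CDA cells 1 of 10 was higher and 0 lower (median 0.12). Of all genes, 6.73% were higher and 6.03% lower in MDS-L cells, and 2.53% and 3.07% in MDS-L/CDA cells, so 1 gene of the list is near the share of all genes. That gene was MAFF, a small MAF protein without a transactivation domain, with ratios of 2.63 in MDS-L and 2.96 in the MDS-L/CDA line. The latter rests on a vehicle signal of 11.2 that was not flagged as well above background. ATF3, a stress-induced partner of JUN, had ratios of 1.14 and 1.26, and BATF3 1.61 and 1.22.

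Of the kinases and factors that act on FOS and JUN, few passed 2-fold in either line. In MDS-L cells 0 of 20 measured genes were higher and 1 lower (median log2 -0.14), and in MDS-L/CDA cells 1 was higher and 2 lower (median 0.002). These counts are small beside 20 genes, where 6.73% of all genes were higher and 6.03% lower in MDS-L and 2.53% and 3.07% in the MDS-L/CDA line, and do not set the list apart. FBXW7, the substrate receptor of a ubiquitin ligase that targets JUN, was lower in both lines, with ratios of 0.455 and 0.424. RPS6KA3, a ribosomal S6 kinase (RSK2) that phosphorylates FOS, had ratios of 0.551 and 0.451. ELK3, a ternary complex factor that acts at the FOS promoter with SRF, had ratios of 1.94 and 2.04, and SRF itself 1.01 and 1.66.

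Among 22 textbook AP-1 target genes, a list chosen with earlier results of these data known, 6 of 15 measured were at least 2-fold higher in MDS-L cells and 0 lower. In MDS-L/CDA cells 2 of 12 were higher and 0 lower. In MDS-L cells 12 of the 15 were measured on both arrays. CCND1, SPP1 and CXCL8 were well above background there with AZA only, so they could not have been called lower. The median log2 ratios of genes measured on both arrays were 0.45 in MDS-L and 0.28 in MDS-L/CDA cells. Over all genes, 6.73% were higher and 6.03% lower in MDS-L cells (median -0.16), and 2.53% and 3.07% in MDS-L/CDA cells (median 0.012). CCL2, a monocyte chemoattractant, had ratios of 34.1 and 16.7, and MMP9, a gelatinase, 5.39 and 3.27. HMOX1, which degrades heme, had ratios of 3.40 and 1.47, and TIMP1, an inhibitor of metalloproteinases, 2.57 and 1.94. CCND1, the D-type cyclin, was at least 7.38-fold higher and SPP1, osteopontin, at least 5.38-fold higher in MDS-L cells, and both were below background on both MDS-L/CDA arrays. Classic targets such as PLAU, CD44 and MT2A had ratios of 0.742, 0.877 and 0.818 in MDS-L cells, and the collagenase MMP1 was below background throughout. All of these genes have other regulators, and AP-1 binding was not measured.

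**Figure D5:**
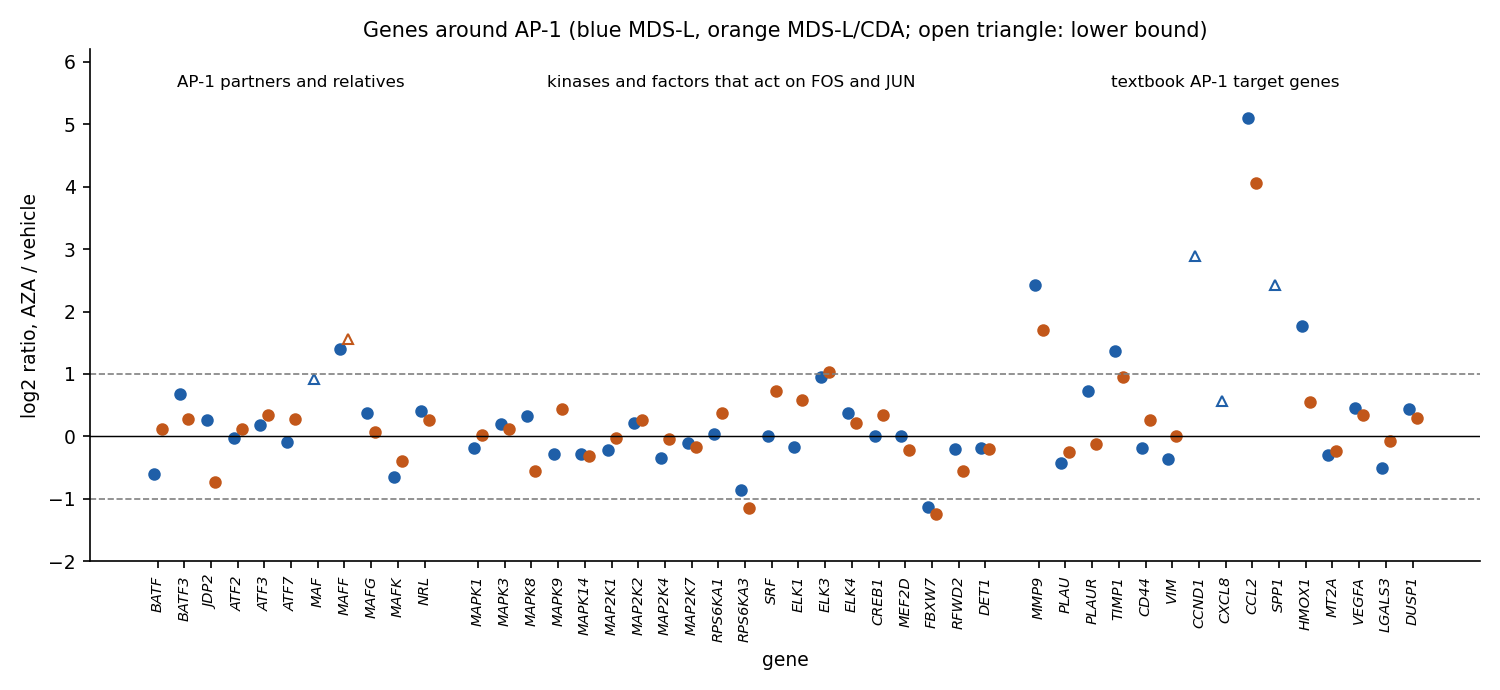
Log2 ratio of AZA over vehicle (vertical axis) of each listed gene that was measured in at least 1 line, in MDS-L (blue) and MDS-L/CDA cells (orange), 1 array per condition. Open triangles are lower bounds, except that of MAFF in MDS-L/CDA cells, a ratio to a vehicle signal not well above background. Dashed lines mark 2-fold. CCL2 and MMP9 lie above 2-fold in both lines, and FBXW7 below in both.

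Markers of other blood cells moved with AZA alongside FOS and FOSB. Of all genes, 6.73% were at least 2-fold higher and 6.03% lower in MDS-L cells, and 2.53% and 3.07% in MDS-L/CDA cells. All 6 mast cell, basophil and eosinophil markers were at least 2-fold higher with AZA in MDS-L cells and 3 of 5 measured in MDS-L/CDA cells, and their summed scaled signal went from 30.9 to 237 and from 12.2 to 54.7. Of the 6 megakaryocyte markers, 3 of 4 measured were higher in MDS-L and 2 of 3 in MDS-L/CDA cells, with sums of 11.1 to 28.0 and 14.9 to 26.3, while GP1BA and PF4 were not well above background on any array. Of 4 monocyte markers analysed, CSF1R and ITGAM were higher among 3 measured in MDS-L cells, by at least 4.86-fold and 2.09-fold. Both were below background in MDS-L vehicle, as were GP9 and CD3D of the other lists, so none of these could have been called lower. CD14, the only monocyte marker measured on both MDS-L arrays, had a ratio of 0.669. In MDS-L/CDA cells all 3 measured were below background in vehicle and well above it with AZA. Their ratios were at least 1.95 for CD14, 1.67 for CSF1R and 1.40 for ITGAM. As bounds, 0 of 3 passed 2-fold, and the full ratios are not known. All sums given here include the probes of a list that were not well above background. For the monocyte markers, the sums in vehicle and with AZA were 0.659 and 1.60 in MDS-L and 0.337 and 1.42 in MDS-L/CDA cells. In vehicle, 1 of these markers was well above background in MDS-L and 0 in MDS-L/CDA cells, so these sums give no fold. FCGR3A was below background throughout. Of 6 lymphocyte markers, 2 of 4 measured were higher and 1 lower in MDS-L cells and 1 of 3 was higher in MDS-L/CDA cells, with sums between 15.6 and 17.7, and CD3E and MS4A1 were not well above background on any array. Of the 6 blast markers measured, 0 were at least 2-fold higher, while 2 were lower in MDS-L and 1 in the MDS-L/CDA line. HLA-DRA had ratios of 0.329 and 0.480 in these lines, CD38 0.359 and 0.725, CD34 0.728 and 1.35, and CD33 1.30 and 0.864. No stromal or epithelial marker was well above background. The part of these markers in the FOS and FOSB values was not tested, and in RNA from whole cultures a change in the share of a cell type and a change of RNA per cell cannot be told apart.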

How the data were processed

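Total RNA of 4 cultures was hybridized to 1-colour Cy3 Agilent arrays (design 072363), 1 per condition, on 1 slide. The authors deposited the scanner output, made with Agilent Feature Extraction 10.7.1.1, which holds spot intensity, background-subtracted within an array but not scaled between arrays. They also deposited a table of linear intensity values for the same arrays, of which 51664 probes were used as an alternative. After sorting, its columns lie within 0.0391 of each other in log2, as after quantile normalization, a step not given in the sources used here, and correlate with the scanner values at 0.999 or more across probes, which are not independent replicates.

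Groups follow the source name of each sample. Control spots and spots flagged as outliers were left out (16 probes), spots of a probe were averaged in log2, and each array was centred on its 75th percentile, leaving 58185 probes of 43311 genes. A gene with several probes was represented by the one with the highest mean signal. Where 1 array of a pair was below background, a bound was taken against the higher of its own level and the lowest level well above background on that array. The Z score was the log2 ratio divided by its spread over all genes in 10 bins of mean signal, a formula chosen here. Technical spread came from probes with at least 5 spots and signals of 10 to 300, a range set after the values had been seen. With 1 array per condition, no test was made. The calling rule was tested on simulated data of 43311 genes and recovered 50 of 50 genes raised by 1.5 log2 units in MDS-L and 48 of 50 in MDS-L/CDA. The raised genes were all brighter in vehicle than FOS (12.4 and 14.6) and FOSB (22.7 and 22.0). The noise added was the spread between spots of an array, without hybridization or culture. The recovery therefore does not cover FOS and FOSB, and calls among unchanged genes are not given here.

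Alternatives were 7 other ways of scaling, among them 7 spike-in probes and normexp with an offset of 50, and 5 other calling rules or filters. All 7 members, the genes nearest to each in pattern (up to 3), and the listed genes past 2-fold with AZA in at least 1 line are named. CDA and DNMT1 were checks, and other listed genes given as examples within 2-fold were chosen after their values were seen. The members and the 9 gene lists (92 genes) were chosen with earlier results of these data known. LYZ and CD68, on the list of monocyte markers, were not analysed here, and 1 further marker is not reported here. IL8 was matched as CXCL8. Promoters are RefSeq sequences on GRCh38.p14, found for 6 of 7 members, all except FOSL1. Proteins were not analysed here. Python 3.11.15, numpy 2.4.6, pandas 2.3.3, matplotlib 3.10.9, R 4.3.3 and limma 3.58.1 were used.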

Additional observations from a re-analysis of the deposited data

Results flagged for a closer look

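FOSL1 moved in opposite directions with AZA in the 2 lines, each of which is a single pair of arrays. Its log2 ratio was -0.52 in MDS-L and 0.65 in the MDS-L/CDA line, from scaled signals of 1.05 and 0.733 in MDS-L and of 0.958 and 1.5 in MDS-L/CDA for vehicle and AZA. Whether the lines differ was not tested. Under the 8 ways of scaling the log2 ratio ranged from -1.06 to -0.15 in MDS-L cells and from 0.29 to 0.68 in MDS-L/CDA cells.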

How the results depend on the processing

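With 4 comparisons and 12 alternatives, the counts and medians of the members changed as follows. The median changed sign from 0.54 in MDS-L with AZA under median scaling, and from 0.15 between the lines in vehicle under median scaling and under no scaling (-0.21). Scaling each array to its median gave 1 member higher and 1 lower in MDS-L with AZA, with a median log2 ratio of -0.0014, and between the lines 1 lower and a median of -0.37 in vehicle and 0 higher under AZA. Normexp gave 0 members higher with AZA in either line, and 0 higher and 0 lower between the lines under AZA. Adding a Z score of 2 left 1 higher in MDS-L and 0 in MDS-L/CDA with AZA, and 0 higher and 0 lower between the lines under AZA. A ratio of 1.5 gave 5 higher in MDS-L/CDA with AZA, 1 higher between the lines in vehicle and 2 lower under AZA. The share of all genes past a ratio of 1.5, or past the limit under the other alternatives, is not given here. These counts therefore cannot be read as unusual for the members. Between the lines under AZA, no scaling gave 0 higher, 2 lower and a median of -0.59. There, spike-in scaling and the 75th percentile over probes measured on all arrays each gave 0 higher, quantile normalization and the authors' value table each gave 0 lower, and no filter on dim probes gave 2 lower. Signal over background limits JUN, which was measured on 1 array. With 1 array per condition no array could be left out and no paired analysis was possible.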
